A study of Mus musculus with 3 samples.

Results

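The circadian clock genes were examined at postnatal day 13 in the neocortex of wild-type mice of CD1, an outbred stock. The set held 10 genes: the activators Arntl (also called Bmal1), Clock and Npas2, the repressors Per1, Per2, Per3, Cry1 and Cry2, and the output factors Dbp and Tef. A gene counted as measured where a probe set of the array carried its symbol and no other, which gave 8 genes with 1 probe set each, out of 14938 single-gene probe sets and 23172 probe sets in all. Per2 shared its probe set with a second symbol and no probe set used here carried the symbol Cry2, so neither is given a level. Total RNA came from 3 animals with 1 array each, which form 1 group. No allele, treatment or second age was part of the design, and no time of day was used here because the labels name none. The data therefore give levels and the spread between animals, and a difference between 2 mice has no replicate of its own.

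In the mammalian clock, ARNTL pairs with CLOCK or NPAS2 and activates genes that carry E-box sequences, among them the Per and Cry genes. PER and CRY proteins then enter the nucleus and repress their own activators, and the loop takes about a day to run. DBP and TEF are PAR bZIP factors, driven by the loop and binding D-box sequences in its targets, while ROR and REV-ERB receptors act on Arntl through another element. In forebrain NPAS2 is a known alternative partner of ARNTL, and clock gene rhythms in cortex are set by signals from the suprachiasmatic nucleus of the hypothalamus. Each of these genes is transcribed in several cell types, and in bulk tissue fewer cells of a type and less RNA per cell cannot be told apart.

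Matches to known clock-related sequences in the promoters of these genes are shown first, because the values below are set beside them. RefSeq promoters of assembly GRCm38.p6, running from 250 bases before to 50 bases after each annotated start, were found for 9 of the 10 genes and 14 starts. This assembly is not the mm8 build named for the arrays and served only to show sequence. Letters were searched on both strands: CACGTG for the E-box, CACGTT for its non-canonical form, TTATGTAA and TTACGTAA for the D-box, TAGGTCA for the core of the ROR and REV-ERB element, and TGACGTCA for the cyclic AMP response element. In the stretches below the capitals mark the matches, which did not overlap each other, and each line reads in the direction of transcription.
Per1 (first start), chr11:69098763-69098808, plus strand: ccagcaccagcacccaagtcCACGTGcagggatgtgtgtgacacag
Cry1, chr10:85185089-85185153, minus strand: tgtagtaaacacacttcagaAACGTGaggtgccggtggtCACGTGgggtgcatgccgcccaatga
Tef (first start), chr15:81802526-81802571, plus strand: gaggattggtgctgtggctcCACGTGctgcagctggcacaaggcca
Tef (second start), chr15:81811256-81811301, plus strand: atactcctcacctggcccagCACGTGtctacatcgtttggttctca
Per3, chr4:151044796-151044890, minus strand: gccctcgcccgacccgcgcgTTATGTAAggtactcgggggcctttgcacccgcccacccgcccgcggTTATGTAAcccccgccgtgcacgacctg
Arntl (second start), chr7:113207531-113207557, plus strand: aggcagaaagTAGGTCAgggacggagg

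The E-box of Per1 began 166 bases before its start and that of Cry1 60 bases before. Cry1 also held the non-canonical form, here on the opposite strand as AACGTG, at 79 bases before its start, and each of the 2 starts of Tef had an E-box, at 127 and 138 bases. The promoter of Per3 held the D-box letters TTATGTAA at 205 and again at 158 bases before the start. Arntl held the ROR element core just downstream of its second start. Over all 32851 promoters of the same length, CACGTG was present in 7.15%, CACGTT in 4.68%, TTATGTAA in 0.938%, TAGGTCA in 2.61%, TTACGTAA in 0.119% and TGACGTCA in 1.79%. Of the 14 promoters of the clock genes, 4 held CACGTG, 2 held CACGTT, 1 held TTATGTAA, 1 held TAGGTCA and 0 held either of the remaining sequences. The second CACGTT was in the promoter of Cry2, 166 bases before its start and again on the opposite strand. Clock, Npas2 and Dbp had no match in these windows. A match is a description of the letters and not of binding, and no match says only that the letters lie elsewhere or nowhere near.

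**Figure D1:**
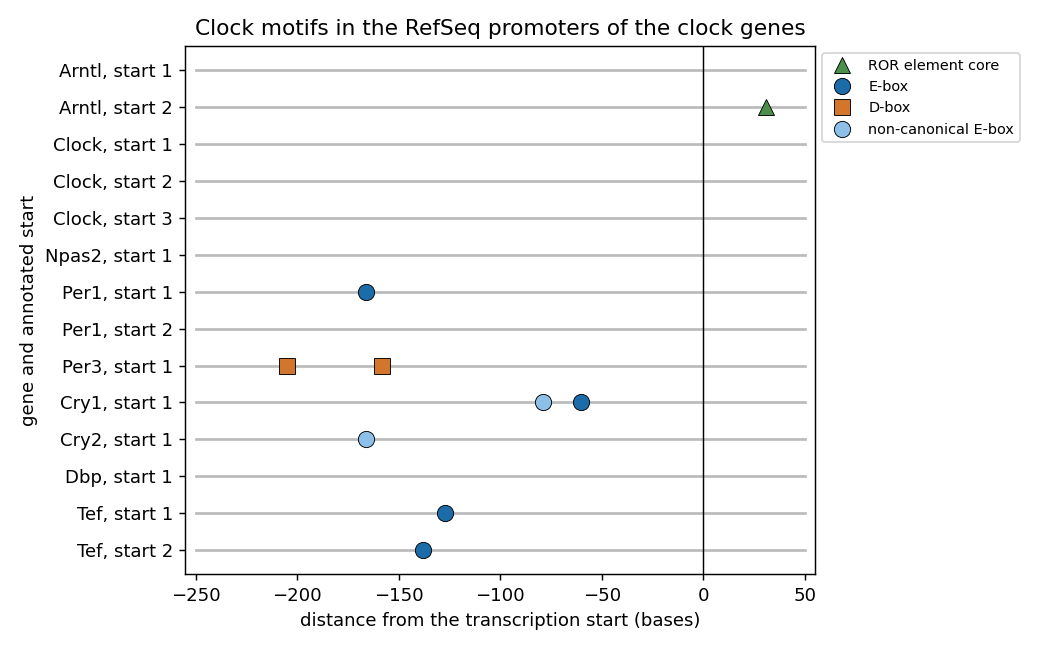
Positions of the searched sequences in the promoters of the clock genes. Each grey line is 1 annotated start of a gene (14 starts of 9 genes), the horizontal axis is the distance from that start in bases, and symbols mark the first base of a match. The E-boxes of Per1, Cry1 and Tef and the D-box pair of Per3 lie upstream of the start, and the ROR element core of Arntl lies downstream.

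The deposited intensities were taken to log2. The median intensity of an array was 248.1 in mouse 1, 256.6 in mouse 2 and 230.6 in mouse 3. Across the 13649 probe sets above background on every array, Spearman's rho between 2 arrays lay between 0.979 and 0.991, a correlation across probe sets and not across animals. The background limit of each array was set from olfactory, vomeronasal and trace amine receptors, which serve sensory neurons of the nose: 95% of their 809 probe sets lay below it. It stood at a log2 intensity of 6.93, 6.79 and 6.77 in mice 1 to 3. As a check of the labelled tissue, 5 of 5 measured neocortical neuron markers were above it on every array, with Slc17a7, the cortical vesicular glutamate transporter, at 12.89 ± 0.10 and Tbr1, a deep-layer transcription factor, at 11.50 ± 0.11 (SD, n = 3). Because probes differ in how strongly they bind, the genes are not ranked against each other by level.

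All 8 measured clock genes were above the background limit on each of the 3 arrays, and so were 73.9% of the single-gene probe sets of the whole array. At its lowest animal, a gene lay between 1.69 (Per3) and 4.58 (Tef) above the limit of that array on the log2 scale. The difference between the highest and the lowest mouse had a median of 0.18 over the 8 genes and ran from 0.12 to 0.42, while its median over the 11037 single-gene probe sets above the limit was 0.31. The gap narrowed under other scalings: the medians were 0.21 against 0.25 with quantile normalization, 0.20 against 0.25 with cyclic loess and 0.25 against 0.30 with each array centred on its median. Without mouse 1 they were 0.09 against 0.15.

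**Figure D2:**
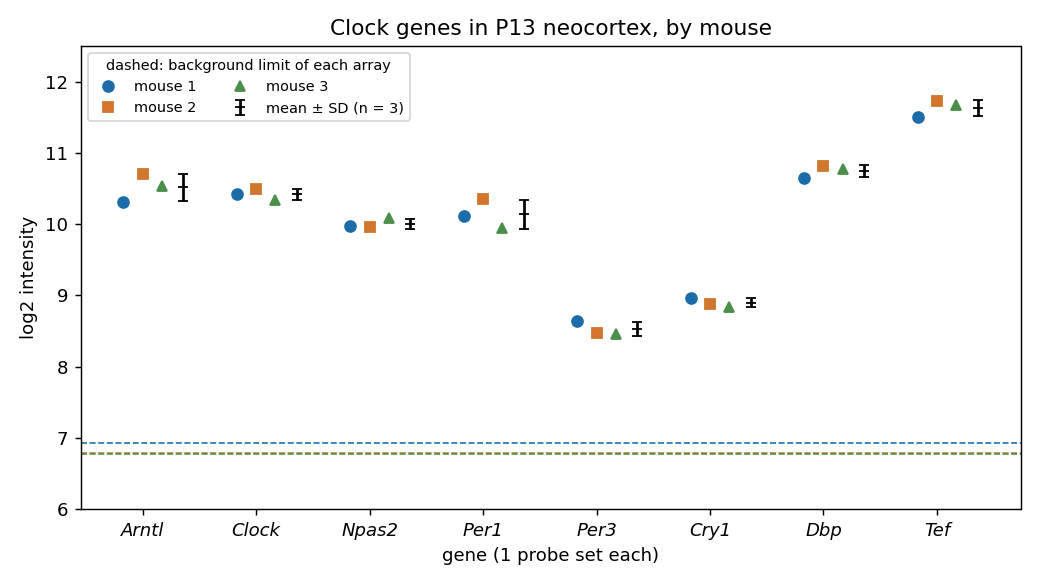
Log2 intensity of the 8 measured clock genes in each mouse, with the mean and SD of the 3 mice to the right of the points and the background limit of each array as a dashed line. Every point lies above the limits of 6.93, 6.79 and 6.77, and the points of a gene lie within 0.42 of each other. Heights are not comparable between genes, whose probes differ.

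The activators were measured with a full set of 3 genes. Arntl, the obligate partner of the activating pair (chromosome 7), had a log2 intensity of 10.32 in mouse 1, 10.70 in mouse 2 and 10.53 in mouse 3, or 10.51 ± 0.19 (SD, n = 3). Mouse 1 was low and mouse 2 high, and the difference of 0.38 was 1.30-fold. It was 0.19 with quantile normalization and 0.18 with cyclic loess, with the same animals at the ends. Clock, which carries acetyltransferase activity and is the usual partner of ARNTL (chromosome 5), was at 10.42, 10.49 and 10.34 in mice 1 to 3, a mean of 10.42 ± 0.08. Its range of 0.15, or 1.11-fold, was 0.03 with each array centred on its median, and the order of its animals changed with the scaling. Npas2, the forebrain partner that can stand in for CLOCK (chromosome 1), was at 9.97, 9.96 and 10.08, a mean of 10.002 ± 0.07. On the deposited scale its range was 0.12, or 1.09-fold, with mouse 3 slightly high and the other two nearly equal. Under quantile, median and cyclic loess scaling the range was between 0.24 and 0.28, with mouse 3 still highest and mouse 2 lowest.

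The repressors were measured through 3 of 5 genes. Per1, which responds quickly to light, neuronal activity and hormones as well as to the clock (chromosome 11), was at 10.11 in mouse 1, 10.36 in mouse 2 and 9.94 in mouse 3, or 10.14 ± 0.21. Its range of 0.42, or 1.33-fold, was the widest of the set on the deposited scale, with mouse 2 high and mouse 3 low, and 70.6% of single-gene probe sets above the limit had a smaller one. With each array centred on its median the range of Per1 was 0.26 and that of Arntl, 0.34, was the widest, and Arntl was also the widest without mouse 2 or without mouse 3. Per3, a period gene with a lesser part in rhythm generation (chromosome 4), was at 8.64, 8.48 and 8.46, a mean of 8.53 ± 0.10. Mouse 1 was the high animal and the other two differed by only 0.02. Cry1, the stronger of the cryptochrome repressors and a lengthener of the period (chromosome 10), was at 8.97, 8.88 and 8.84, a mean of 8.90 ± 0.07. Its range was 0.13, or 1.09-fold, again with mouse 1 highest.

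The output factors shared their order of the animals on the deposited scale. Dbp, whose transcript has one of the deepest daily swings known in many tissues (chromosome 7), was at 10.65, 10.82 and 10.78 in mice 1 to 3, a mean of 10.75 ± 0.09. Its range was 0.17, or 1.13-fold. Tef, the PAR bZIP factor named for thyrotroph cells of the pituitary (chromosome 15), was at 11.50, 11.72 and 11.67, a mean of 11.63 ± 0.11 with a range of 0.22 or 1.16-fold. Mouse 1 was lowest for Dbp and for Tef on the deposited scale, but with quantile normalization or cyclic loess the ranges shrank to between 0.03 and 0.08 and mouse 2 became the lowest.

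None of the 8 genes differed between the mice by more than 0.5 on the log2 scale, where 18.0% of single-gene probe sets above the limit did. In the robust variance model of limma, which asks whether a probe set varies between animals more than others of its level, 0 of 8 had an excess at a Benjamini-Hochberg adjusted p under 0.05, against 0.0659% of the 13649 probe sets tested. At an unadjusted p under 0.05 the count was also 0 of 8, against 5.27%. Per1 and Arntl, which came closest, each had an adjusted p of 0.987 in limma's model. A test on 3 animals that does not pass does not show that the levels were equal. Only the unadjusted result for Per1 depended on mouse 1. Without that animal its unadjusted p was 0.0468 in limma's model and its adjusted p was 0.991 or above. The range of Per1 was 0.42 with or without mouse 1, while the median range of all single-gene probe sets above the limit fell from 0.31 to 0.15.

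The activating and the repressing side of the clock peak at opposed times of day in most tissues, so their deviations were set side by side for each mouse. The median deviation of the 3 activators from the mean of the animals was -0.03 in mouse 1, 0.07 in mouse 2 and 0.01 in mouse 3. The median deviation of the 5 repressor and output genes was -0.02, 0.07 and -0.06. The first minus the second was -0.01 in mouse 1, 0.00 in mouse 2 and 0.07 in mouse 3, with an SD of 0.04 over mice. These are descriptions of 3 animals. With means in place of medians the difference was -0.06 in mouse 1, and with cyclic loess it was 0.02 in mouse 3. With 1 mouse left out, the difference ran from -0.12 to 0.05 in mouse 1, from -0.05 to 0.05 in mouse 2 and from -0.05 to 0.12 in mouse 3. The median deviation of the 3 repressors alone was 0.07, -0.01 and -0.07 in mice 1 to 3. That of the 2 output genes was -0.11, 0.08 and 0.03. On the deposited scale the repressor median had the opposite sign to the activators in each mouse, which the pooled difference does not show. With quantile normalization and with cyclic loess this opposition was lost in mice 1 and 2. With each array centred on its median it was lost in mouse 3. In mouse 1 under quantile normalization, Clock, Npas2 and all 3 repressors were above 0.

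**Figure D3:**
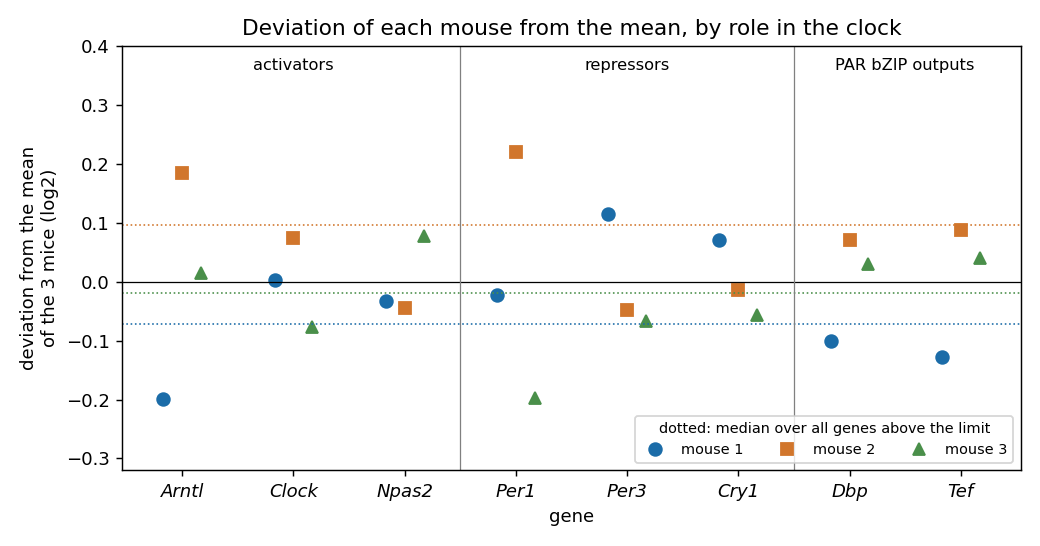
Deviation of each mouse from the mean of the 3 mice (log2) for the 8 measured clock genes, ordered by role. Dotted lines give the median deviation of each mouse over all single-gene probe sets above the limit (-0.07, 0.10 and -0.02 in mice 1 to 3). Arntl and Per1 spread most, and no mouse has the activators on one side of 0 and all of the repressors and outputs on the other.

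The arrays differed in overall brightness, and the order of the mice has to be read against that. Over all single-gene probe sets above the limit the median deviation was -0.07 in mouse 1, 0.10 in mouse 2 and -0.02 in mouse 3, and for the 8 clock genes it was -0.03, 0.07 and -0.02. The clock genes were highest in mouse 2 in 5 of 8 cases, against 59.8% of all such probe sets, and lowest in mouse 1 in 3 of 8, against 53.8%. With quantile normalization the first count was 2 of 8 against 32.2%, and with each array centred on its median 2 of 8 against 31.6%. Relative to the median of all genes, Per3 stood 0.19 above in mouse 1 and Cry1 0.14 above. On the same footing Per1 stood at 0.12 in mouse 2 and -0.18 in mouse 3, and Arntl at -0.13 in mouse 1. Under all 4 other scalings tried, Arntl, Npas2 and Per1 kept their highest and their lowest mouse, and Per3 and Cry1 kept mouse 1 as the highest. Clock, Dbp and Tef kept neither through all 4, so no order of the animals is read from them.

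The sequences shown above were set beside these values. Per1 and Cry1 both hold the E-box letters, and mouse 2 minus mouse 1 was 0.24 for Per1 and -0.09 for Cry1. The signs stayed opposed under quantile, median and cyclic loess scaling. There this difference ran from 0.04 to 0.19 for Per1 and from -0.22 to -0.13 for Cry1. The other pairs of mice had like signs in both genes on the deposited scale. Mouse 3 minus mouse 1 was -0.17 for Per1 and -0.13 for Cry1, and mouse 3 minus mouse 2 was -0.42 and -0.04. Under those scalings Per1 was lowest in mouse 3 and Cry1 in mouse 2. For Tef, with the same letters, mouse 2 minus mouse 1 was 0.22 on the deposited scale but -0.03 with quantile normalization and -0.02 with cyclic loess. Per3, with its pair of D-boxes, was highest in mouse 1, where Dbp and Tef, which encode D-box binding factors, were lowest on the deposited scale. That ordering of Dbp and Tef did not hold under quantile normalization or cyclic loess. Of the other D-box binding factors given below, Hlf was lowest in mouse 3 and Nfil3 in mouse 1 on the deposited scale. Of 4 other scalings, 3 kept that lowest mouse for Hlf and 1 for Nfil3. A link between the sequences and the values was not tested.

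The auxiliary loop, which stabilises the core oscillator, was measured through 8 of 10 listed genes. All 8 were above the limit on every array, against 73.9% of single-gene probe sets. In limma's model 0 of 8 had an excess variance at an adjusted p under 0.05, against 0.0659%, and 0 of 8 at an unadjusted p under 0.05, against 5.27%. A range over 0.5 was found in 0 of 8, against 18.0%. Their median range between mice was 0.12. Hlf, the third PAR bZIP factor, ranged most, at 10.37, 10.65 and 10.35 in mice 1 to 3. Its high value in mouse 2 held under quantile, median and cyclic loess scaling.

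The E-box competitor Bhlhe40 was at 9.63, 9.89 and 9.76 in mice 1 to 3, and its relative Bhlhe41 at 9.47, 9.41 and 9.41. Arntl2, a paralogue of Arntl, was at 10.005, 10.03 and 10.22, and Nr1d2, which encodes the repressor REV-ERB beta, at 10.60, 10.68 and 10.55. The activating receptor genes were narrow: Rora was at 11.12, 11.21 and 11.17 and Rorb, which also marks layer 4 neurons, at 9.81, 9.81 and 9.71. Nfil3, the repressor that competes with DBP at D-boxes, was at 8.41, 8.44 and 8.52. The highest and lowest mouse were 0.31 apart or less in all 8 genes.

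The enzymes and partners that act on clock proteins were measured through 12 of 14 listed genes. All 12 were above the limit on every array, against 73.9% of single-gene probe sets, and their median range was 0.21. In limma's model 0 of 12 had an excess variance at an adjusted p under 0.05 and 1 of 12 at an unadjusted p under 0.05, against 5.27% of all probe sets tested. That gene was Tipin, with an adjusted p of 0.854 in limma's model. More than 0.5 separated the highest and lowest mouse in 3 of 12, or 25% against 18.0% of all single-gene probe sets above the limit.

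Those 3 were Tipin, Timeless and Fbxl21. Tipin, a partner of the Timeless protein at replication forks, was at 8.97, 9.75 and 9.51 in mice 1 to 3, a 1.72-fold range with mouse 1 low. Timeless ran the other way, at 8.88, 8.51 and 8.34, with mouse 1 high. Fbxl21, an F-box protein that binds cryptochromes, was at 8.26, 8.78 and 8.35, with mouse 2 high. For all 3 genes the highest and the lowest mouse stayed as they were under quantile, median and cyclic loess scaling.

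Among the kinases, Csnk1d, which phosphorylates PER proteins, was at 11.51, 11.71 and 11.52, Csnk2a1, the catalytic subunit of casein kinase II, at 10.83, 11.14 and 11.01, and Gsk3b at 12.22, 12.43 and 12.22. Mouse 2 was the highest in each on the deposited scale, but not under every other scaling. The PER-directed ubiquitin ligase component Btrc was at 10.56, 10.75 and 10.71, and the deacetylase Sirt1 at 9.08, 9.33 and 9.21. Mouse 2 was highest in 10 of the 12 genes of this list on the deposited scale, against 59.8% of all single-gene probe sets above the limit. The count was 3 of 12 against 32.2% with quantile normalization and with cyclic loess, and 4 of 12 against 31.6% with each array centred on its median. Tipin and Fbxl21 were the genes highest in mouse 2 under every scaling tried.

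**Figure D4:**
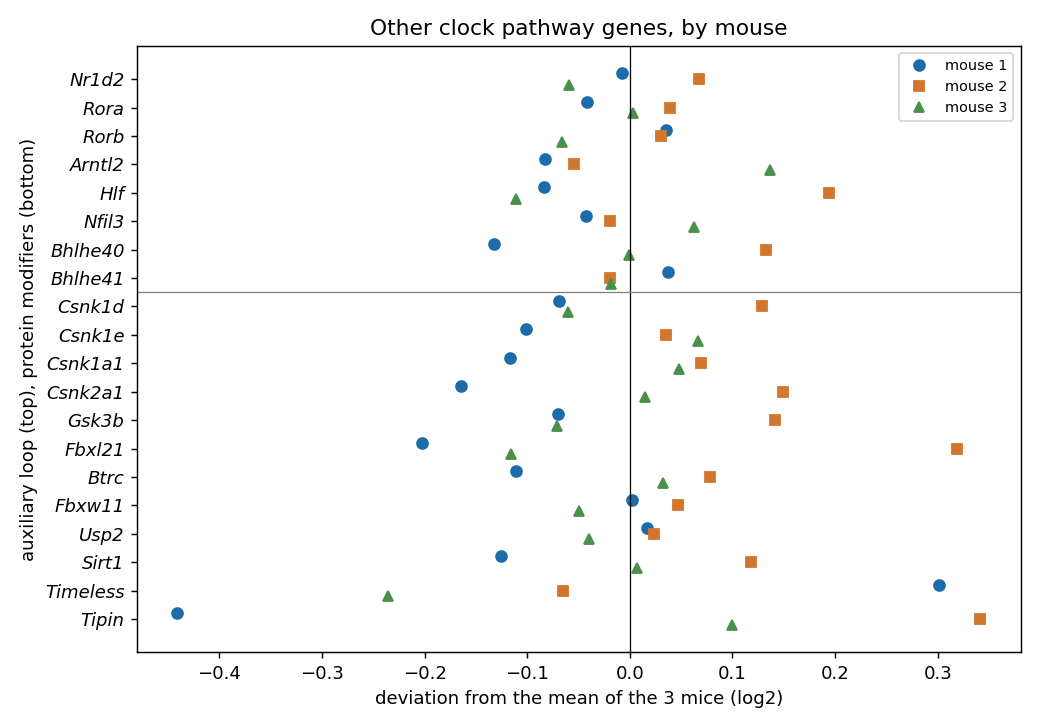
Deviation of each mouse from the mean of the 3 mice (log2) for the 8 measured genes of the auxiliary loop (above the line) and the 12 measured genes acting on clock proteins (below it). Tipin and Timeless spread in opposite directions for mouse 1, and the auxiliary loop genes stay within 0.20 of 0.

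Per1 and Per2 are also known as targets of neuronal activity and of glucocorticoids, so lists of such genes were read beside Per1. Of 10 measured immediate early genes, 8 were highest in mouse 2, against 59.8% of all single-gene probe sets above the limit, and 9 were lowest in mouse 1, against 53.8%, as in Egr1 at 10.88, 11.53 and 11.01 and Fos at 9.39, 9.77 and 9.57. Of 8 measured glucocorticoid-responsive genes, 7 were highest in mouse 2 and 8 lowest in mouse 1, as in Fkbp5 at 9.48, 9.83 and 9.73. Under quantile, median and cyclic loess scaling, 7 or 8 genes of the first list and 5 or 6 of the second were highest in mouse 2. That share over all single-gene probe sets above the limit was then 31.6% or 32.2%. Lowest in mouse 1 were 7 to 9 genes of the first list and all 8 of the second, against 41% to 59.3%. Per1 shared the high value of these lists in mouse 2 but was lowest in mouse 3. The median range between mice was 0.51 for the first list and 0.42 for the second, against 0.18 for the clock genes. In limma's model 0 of the 9 and 0 of the 8 genes tested passed an adjusted p of 0.05, against 0.0659% of all probe sets tested. In the same model 1 of each, Egr1 and Sult1a1, had an unadjusted p under 0.05, against 5.27%. Ier2, counted among the 10 immediate early genes but not tested, was above the limit on only 2 arrays. Sult1a1, a sulfotransferase, was singled out after its values were seen.

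Cell type markers also differed between the animals. The median deviation of 4 meningeal markers was -0.20, 0.41 and -0.32 in mice 1 to 3 on the deposited scale. All 4 were highest in mouse 2, as Per1 was, but 2 of them, Ptgds and Mgp, were lowest in mouse 1 and not in mouse 3. The median deviation of 4 endothelial markers was 0.28, -0.04 and -0.20, and 3 of 4 were highest in mouse 1, as Per3 and Cry1 were, the exception being Cldn5. All 8 of these markers were above the limit on every array. Their part in the values of the clock genes was not tested. The 3 oligodendrocyte markers were highest in mouse 3. The 3 astrocyte markers had median deviations of -0.04, -0.02 and 0.06 in mice 1 to 3, but Aldh1l1 was highest in mouse 1. For the 4 microglial markers the medians were -0.17, 0.16 and -0.005. C1qa and Aif1 ranged over more than 0.5, or 2 of 4 against 18.0% of single-gene probe sets above the limit, while Csf1r ranged 0.07. The 5 neocortical neuron markers had median deviations of -0.08, 0.12 and -0.04 in mice 1 to 3 but were not uniform. Neurod6 ranged most, at 10.24, 11.25 and 10.93, with an unadjusted p of 0.00188 and an adjusted p of 0.45 in limma's variance model. Cux2 was instead highest in mouse 1, at 9.83, 9.72 and 9.47.

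**Figure D5:**
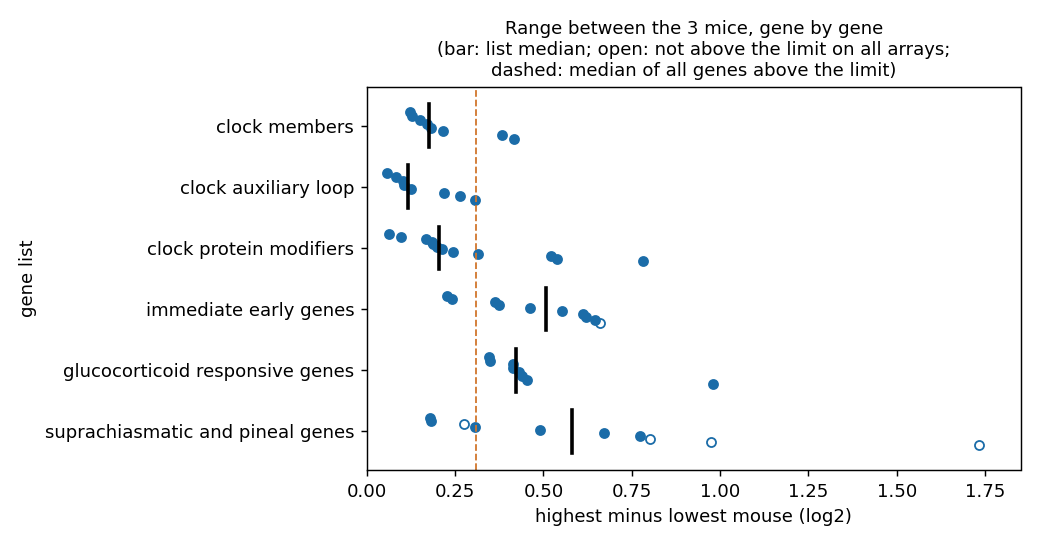
Difference between the highest and lowest mouse (log2) for each measured gene of 6 lists, with the list median as a bar and the median over all single-gene probe sets above the limit (0.31) as a dashed line. Open circles are genes not above the limit on every array. The medians of the clock genes (0.18), the auxiliary loop (0.12) and the protein modifiers (0.21) lie left of the dashed line, and those of the immediate early (0.51) and glucocorticoid-responsive genes (0.42) lie right of it.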

How the data were processed

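Total neocortical RNA of 3 mice was labelled by an Affymetrix whole-transcript sense assay, per the labels' protocols. The authors deposited a linear intensity for each probe set. The submitters' processing notes name Affymetrix Power Tools and mm8. How background, normalization and summary were handled is not given in the sources used here. Medians differ between arrays, so brightness differences remain.

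Log2 was taken without a pseudocount. By the platform annotation 14938 probe sets carried 1 symbol, 989 carried several and 7245 none. Entrez IDs of all 8 measured members matched RefSeq. A gene of another list with several probe sets was represented by its brightest. The variance test used limma 3.58.1 in R 4.3.3 on 13649 probe sets, with Benjamini-Hochberg adjustment, and was tested on simulated data. There it called 46% of 100 probe sets given 4 times the SD and 78% of 100 given 8 times. Of the unchanged probe sets it called 0.0595%. An excess under 4 times the SD would thus be missed more often than found. With 3 arrays, precision is limited throughout. Members, lists and tests were chosen with earlier results of these data known. Named were all members, the auxiliary loop genes, the 8 protein modifiers of widest range, genes of other lists beside a member they bear on, and the 3 genes nearest to the member of widest range. Alternatives were other limits, quantile, median and cyclic loess scaling, log2(value + 16), other variance models, and leaving out each mouse.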

Additional observations from a re-analysis of the deposited data

How the results depend on the processing

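All 8 measured clock genes stayed above the limit with it set at the 99th percentile. They also did at the 90th percentile, under quantile or median scaling, and without any 1 mouse, but these settings do not test the result. A lower limit or a left-out array cannot remove a gene. Both scalings keep the order of probe sets within an array, from which its limit is set. In all 10 alternative variance fits 0 of 8 passed limma's adjusted p of 0.05, and 0 of 8 ranged over more than 0.5 under any of 7 alternatives. Those of the 7 that leave out a mouse can only narrow a range, so they do not test that count. The range of the members' median deviation was 0.10, between 0.09 and 0.11 under 6 other settings, and between 0.02 and 0.12 with 1 mouse left out. The lowest value, 0.016, was without mouse 2. Among the 6 settings, keeping only members above the limit could not change the value, since all 8 were above it. Activators minus repressors and outputs was -0.063 in mouse 1 with means in place of medians and 0.023 in mouse 3 with cyclic loess. With 1 mouse left out it ran from -0.119 to 0.050 in mouse 1, from -0.050 to 0.054 in mouse 2 and from -0.054 to 0.119 in mouse 3. Of the 32 ranges of single members under other scalings, 13 moved by more than the SD of the gene, mostly under quantile normalization and cyclic loess. The number of all probe sets with excess variance was 9, but 27 without mouse 1, 2 with quantile normalization, 5 with median scaling, 5 with no trend in the variance model and 18 when all probe sets were tested. No scaling moved the median of all genes by more than 0.094 in any mouse. Mouse 1 lost brightness at high levels, with a median deviation of 0.04 in the dimmest and -0.14 in the brightest 2208 single-gene probe sets. No paired analysis was possible because the 3 arrays form 1 group.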

Other observations

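Genes of the brain's clock centres were measured in the same RNA. Of 10 measured genes of the suprachiasmatic nucleus and the pineal gland, 6 were above the limit on every array, against 73.9% of all single-gene probe sets. Nms and Six6, which mark the suprachiasmatic region, were above it on 0 arrays, and Aanat and Tph1, enzymes of the melatonin pathway, on 1 array each. Prok2, Vipr2, Lhx1 and Crx were above it on all 3 arrays, by at least 0.22, 0.29, 0.50 and 0.57 on the log2 scale. Avp and Rgs16 were also above it on all 3. Avp, the vasopressin gene of hypothalamic neurons, was at 8.79, 9.56 and 9.21 in mice 1 to 3, a range of 0.77 with an unadjusted p of 0.0324 and an adjusted p of 0.902 in limma's variance model. Rgs16, a regulator of G protein signalling, was at 9.41, 9.60 and 9.42.

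The single-gene probe sets closest to Per1 in their deviations over the 3 mice were Ptges3, Zfp444 and Pcdh1, at Euclidean distances of 0.0043, 0.0080 and 0.0087 on the log2 scale. Of 11036 compared, 404 lay within 0.1, so such closeness over 3 arrays is common.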
